A study of Caenorhabditis elegans with 10 samples.

Results

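The genes described here are the nuclear hormone receptor genes of Caenorhabditis elegans other than nhr-23, nhr-25, nhr-74 and nhr-85. They were found by symbol, as names made of nhr and a number, and kept where at least 3 libraries held 10 or more counts. Of 20182 genes in the count table, 268 have such a symbol. Of these, 185 are members, 79 stayed under the count minimum and 4 were left out by name. The 79 genes under the minimum had a median of 4 counts summed over all libraries, and 11 of them were at 0 in every library. Just inside the minimum were nhr-149 and nhr-258, each with 10 counts in its third-highest library. Just outside were nhr-186 with 8 counts and nhr-236 with 7 counts.

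What was measured is ribosome footprints, the stretches of mRNA that a translating ribosome covers and so protects from nuclease. The worms were N2, the wild-type laboratory strain, grown continuously. Eggs hatched overnight, first-stage larvae (L1) were placed on NA22 bacteria, and whole worms were taken every 2 h from 18 h to 36 h later. Each of the 10 times has 1 library, so there is no replicate, no mutant and no treated group, and the labels do not say that the libraries came from separate cultures. Errors below are standard errors of a curve through the 10 libraries, and p-values measure the scatter around that curve.

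Library totals ran from 16723638 counts at 24 h to 33696423 counts at 26 h. Members held 0.0967% to 0.222% of each total. Levels are given in CPM, counts per library of 1000000 after TMM scaling, or in CPM per kb of coding sequence where genes are compared with each other. Markers of body-wall muscle, intestine, epidermis, neurons and pharynx were present in every library, as the whole-worm label says. The 6 germline markers summed to 292 CPM at 18 h and 1511 CPM at 36 h, and all 6 rose. In whole worms, fewer cells of a type and less RNA per cell cannot be told apart, and with footprints alone neither can changes in mRNA level and in translation.

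Nuclear hormone receptors are transcription factors that join a zinc-finger DNA-binding domain to a domain that can bind small lipophilic molecules such as sterols, bile acids and fatty acids. C. elegans has an unusually large family of them, most of which descends from an ancestor related to the vertebrate receptor HNF4, and most of these genes have no assigned ligand or function. A smaller group has counterparts in flies and vertebrates. Several worm receptors adjust fat metabolism, detoxification and development to food and stage, and others take part in the larval moults, in which the cuticle is shed and replaced after each stage.

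Most members had few footprints. The median member had 3.02 CPM per kb of coding sequence, while the median of the 13572 tested genes with a known coding length had 10.8 CPM per kb. Of the 181 members that could be tested, 24 lay above that all-gene median. The other 4 members, nhr-73, nhr-149, nhr-258 and nhr-280, had too few counts for the test.

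The highest member per kb was nhr-49 (WBGene00003639), a regulator of fatty acid desaturation and of the response to fasting, at 49.9 ± 9.63 CPM per kb (SD over the 10 libraries). Next came nhr-31 (WBGene00003625), which promotes growth of the excretory cell and expression of vacuolar ATPase genes, at 48.2 ± 17.6 CPM per kb. The vitamin B12-related propionate regulator nhr-68 had 44.5 ± 10.2 CPM per kb. These leading genes differed by less than their spread over the time course. That spread includes change over time and is not an error of the mean, so it does not settle their order, which was not tested. The following members were nhr-1 at 40.3 ± 6.64, nhr-3 at 29.4 ± 6.02 and nhr-14 at 26.4 ± 5.47 CPM per kb, and nhr-14 represses iron uptake genes. The steps from nhr-68 to nhr-1 and from nhr-3 to nhr-14 are also within the spread.

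The first comparison asked which receptor genes had footprints that cycled with the larval stages, at a period of 8 h. Of 181 members tested, 31 oscillated (17.1%), while 22.7% of all 13958 tested genes did. Most of these cycles were modest. The median peak-to-trough difference of the oscillating members was 1.60 log2, against 2.50 log2 for all oscillating genes, and 9 of the 31 (29.03%) spanned at least 2 log2, against 61.6% of all oscillating genes. A gene was called by edgeR's quasi-likelihood test of an 8 h cosine and sine beside a linear time term, where the p adjusted over all tested genes was under 0.05 and the fitted difference reached 1 log2. A further 22 members passed the adjusted p with a smaller difference, as did 11.6% of all genes. Beside genes of like level, 24 of 121 members with a mean of 1 to 10 CPM oscillated, against 25.1%, and 4 of 35 at 10 to 100 CPM, against 20.6%, while under 1 CPM 3 of 25 did, against 21.5%.

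**Figure D1:**
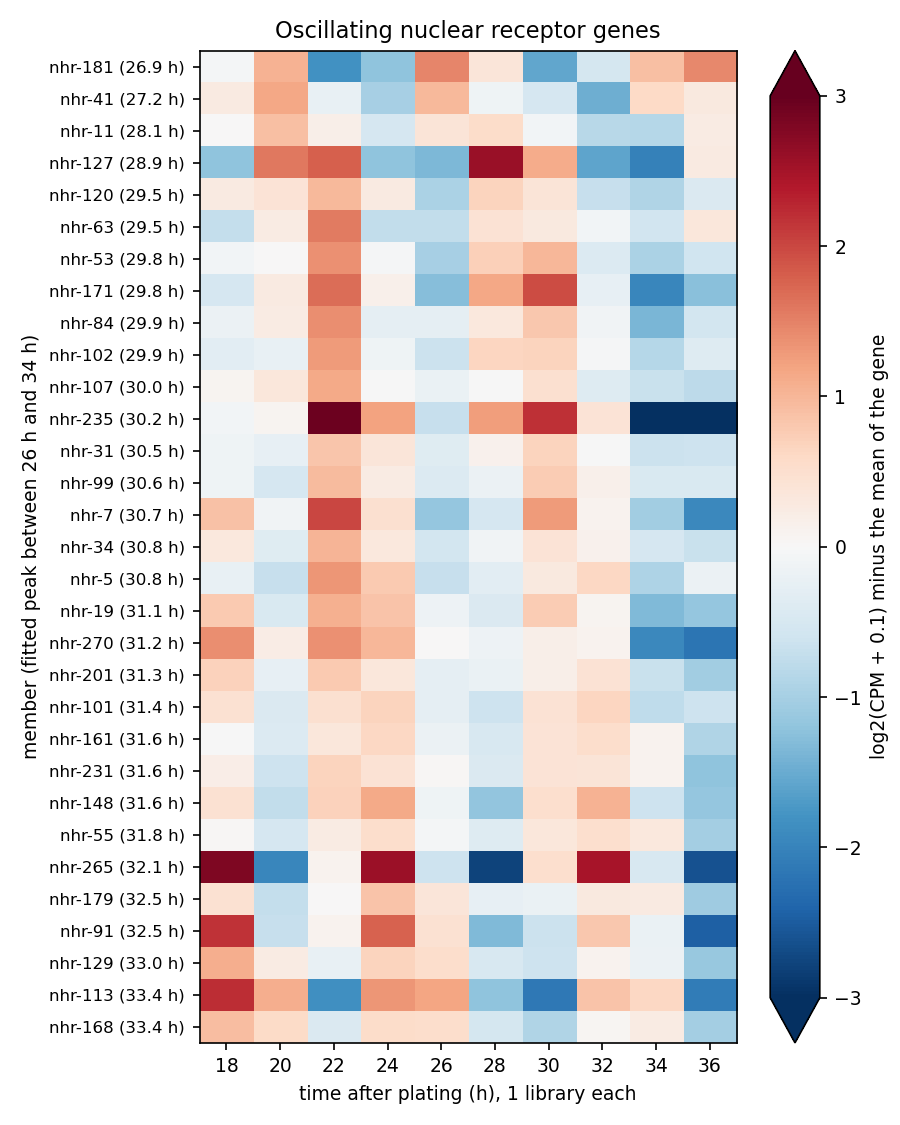
Footprint levels of the 31 oscillating members in each of the 10 libraries, as log2(CPM + 0.1) minus the mean of the gene, with colours capped at 3 in either direction and rows ordered by the fitted peak between 26 h and 34 h. Most rows are red at 22 h and again, more weakly, at 30 h, and most are blue at 36 h.

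Among the oscillating members with counterparts outside nematodes, nhr-91 (WBGene00003681) had the largest difference. It is a relative of the vertebrate germ cell nuclear factor. Its footprints ran at 102, 14.1, 24.5, 77.8, 31.6, 8.98, 14.4, 40.1, 19.9 and 4.10 CPM from 18 h to 36 h. The libraries at 18 h, 24 h and 32 h were high and those at 20 h, 28 h and 36 h low, with each high point under the last. The fit gave a peak-to-trough difference of 3.03 ± 0.21 log2 (edgeR adjusted p = 0.00107) with a peak at 32.5 h. A peak given between 26 h and 34 h recurs 8 h earlier in the fit. The slope of nhr-91 over the 18 h was −2.32 ± 0.23 log2 (adjusted p = 7.72e-05), so it both oscillated and fell.

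The excretory cell regulator nhr-31 had the most counts of the oscillating members. Its levels were 73.1, 67.5, 142, 102, 61.9, 87.7, 126, 79.4, 51.1 and 51.6 CPM from 18 h to 36 h. The high libraries were those at 22 h and 30 h, each flanked by lower ones. The fitted peak was at 30.5 h and the difference 1.18 ± 0.18 log2 (edgeR adjusted p = 0.00510), and the call was kept in every fit that left out a single library.

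The gene nhr-41 (WBGene00022423), a relative of the fly receptor DHR78, was high when most other oscillating members were low. Its levels were 50.6, 92.8, 35.9, 20.8, 82.4, 38.2, 29.6, 15.1, 63.0 and 50.8 CPM, with high points at 20 h, 26 h and 34 h and low points at 24 h and 32 h. The fit gave 1.96 ± 0.41 log2 and a peak at 27.2 h (edgeR adjusted p = 0.0265). The call rests on several libraries: the adjusted p was 0.0626, 0.0516, 0.0818, 0.0559 and 0.0855 without the library of 20 h, 22 h, 24 h, 30 h or 32 h, with differences of 1.68 to 2.09 log2.

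The largest differences belonged to members with no named function here and with few counts. Levels of nhr-265 (WBGene00009608) were 6.81, 0.156, 0.964, 5.72, 0.540, 0.0451, 1.30, 5.38, 0.614 and 0.0612 CPM from 18 h to 36 h. It was high at 18 h, 24 h and 32 h, the times at which nhr-91 was high, and at 1.30 CPM or lower in the other libraries. Its difference was 5.82 ± 1.07 log2 with a peak at 32.1 h (edgeR adjusted p = 0.00875), and the adjusted p was 0.0501 without the 32 h library. The gene nhr-127 (WBGene00003717) followed another phase, at 0.443, 3.65, 4.21, 0.435, 0.390, 7.44, 2.60, 0.317, 0.205 and 1.41 CPM. Its high libraries were 20 h, 22 h, 28 h and 30 h, and its fitted difference was 4.93 ± 0.63 log2, peaking at 28.9 h (adjusted p = 0.00308).

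**Figure D2:**
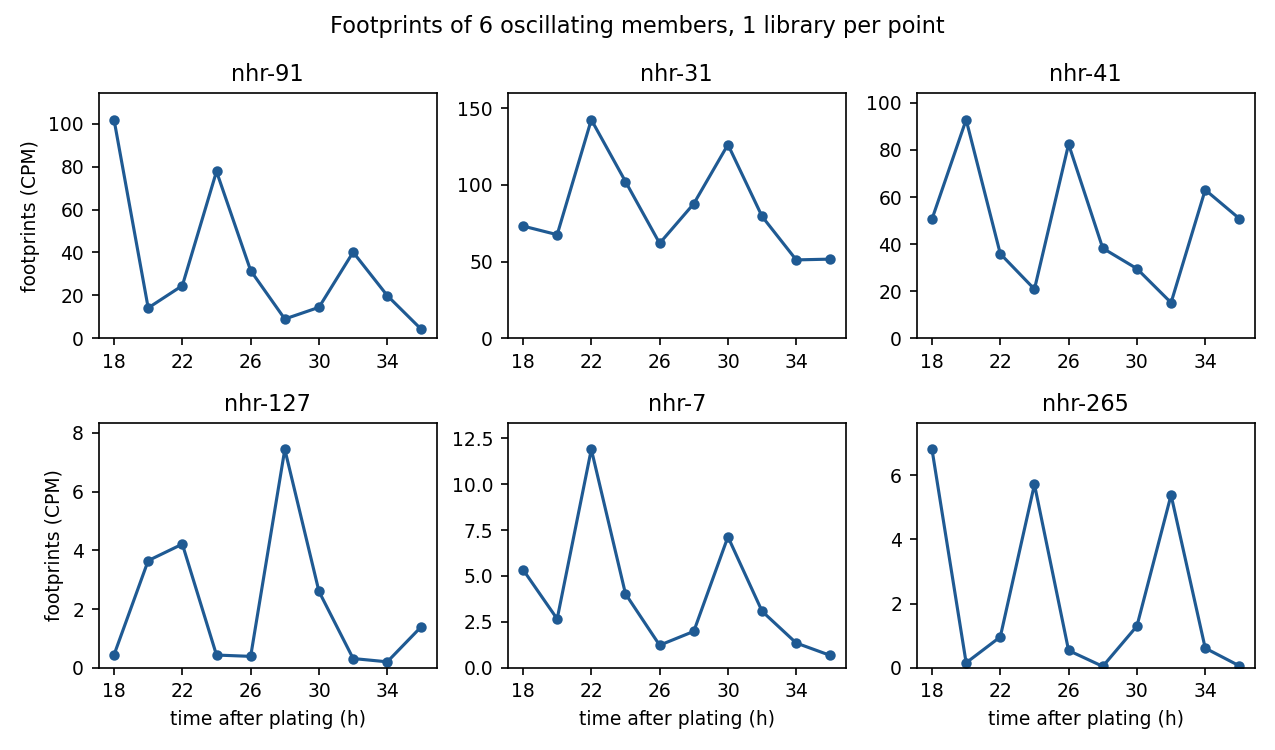
Footprint levels in CPM of nhr-91, nhr-31, nhr-41, nhr-127, nhr-7 and nhr-265 against time after plating, 1 library per point and each panel on its own scale from 0. The panels of nhr-31 and nhr-7 have high points at 22 h and 30 h, those of nhr-91 and nhr-265 at 18 h, 24 h and 32 h, and nhr-41 has its high points at 20 h, 26 h and 34 h.

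Of the other members with large cycles, nhr-7 ran at 5.35, 2.66, 11.9, 4.03, 1.23, 1.98, 7.13, 3.08, 1.35 and 0.673 CPM and had a difference of 2.39 ± 0.49 log2, peaking at 30.7 h (edgeR adjusted p = 0.0144). Its high points at 22 h and 30 h carry the call, since the adjusted p was 0.0646 without the 22 h library and 0.0543 without the 30 h library. The gene nhr-113 had a difference of 3.48 ± 0.63 log2 (adjusted p = 0.0142), peaking at 33.4 h. It was high at 18 h, 24 h and 32 h, with 11.6, 6.15 and 4.48 CPM, and low at 22 h, 30 h and 36 h, with 0.607, 0.468 and 0.489 CPM. Without the 30 h library its adjusted p was 0.0521.

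The gene nhr-235 (WBGene00012597) ran at 1.67, 1.88, 14.4, 4.19, 1.05, 4.38, 8.43, 2.40, 0.123 and 0 CPM from 18 h to 36 h, highest at 22 h and 30 h with no count in the last library, so its 22 h level was at least 78.6-fold higher than the floor of 3 counts in the 36 h library. Its fitted difference of 3.95 ± 0.94 log2 (edgeR adjusted p = 0.0291) is the least certain of the 10 largest. The adjusted p was 0.0517 to 0.114 when any library other than those of 20 h, 28 h and 36 h was left out, with differences of 3.65 to 4.27 log2. The other named members kept their calls without any single library. They were nhr-148, with 2.33 ± 0.22 log2, nhr-53, with 1.93 ± 0.36 log2, and nhr-63, with 1.92 ± 0.38 log2, which peaked at 31.6 h, 29.8 h and 29.5 h. Their highest libraries were at 24 h, 22 h and 22 h, with 5.77, 5.50 and 6.28 CPM. Below a mean of 1 CPM, nhr-171 and nhr-181 also oscillated by 4.08 ± 0.83 and 3.88 ± 0.75 log2, and the first had no count at 34 h. Without the library of 22 h, 28 h or 30 h, nhr-171 had too few libraries above the minimum level to be tested.

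The phase of the cycle was uneven among the members. With the cycle cut into windows of 2 h from 26 h on, the 31 oscillating members placed 2, 8, 15 and 6 peaks in the successive windows. Over all oscillating genes the same windows held 24.4%, 24.5%, 27.6% and 23.5%. The early pair was nhr-41 and nhr-181. Leaving out the 22 h library gave 20 oscillating members, 13 of them peaking from 28 h to 32 h, and leaving out the 30 h library gave 22, with 14 in that window, against 23 of 31 with all libraries. The summed level of the 3 pharynx markers was 622 CPM at 22 h and 573 CPM at 30 h, and 160 to 411 CPM in the other libraries. Of these markers, the muscle genes myo-2 and tnt-4 oscillated and peaked at 30.8 h and 30.5 h. The third, the transcription factor gene pha-4, had a cycle of 0.14 ± 0.29 log2 (edgeR adjusted p = 0.915), had 25.5 and 24.6 CPM at the same times, and fell. The part of these genes in the members' phase was not tested.

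**Figure D3:**
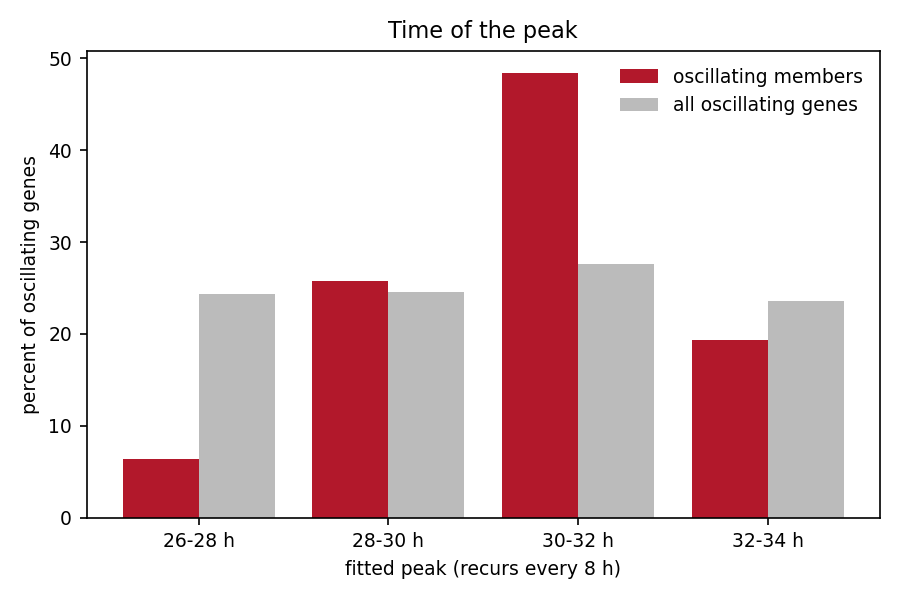
Share of oscillating genes in percent whose fitted peak lies in each 2 h window from 26 h to 34 h, for the 31 oscillating members (red) and all 3174 oscillating genes (grey). The members hold 48.4% of their peaks in the window from 30 h to 32 h and 6.45% in that from 26 h to 28 h, while the grey bars lie between 23.5% and 27.6%.

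The same times stood out over the members as a whole, called or not. Of the 185 members, 80 (43.2%) had their highest level at 22 h, where 18.0% of all tested genes did, and 44 had it at 18 h. From 20 h to 22 h, 140 of 181 members went up (77.3%), as did 48.5% of all tested genes. The median change was 0.36 log2, against 0 log2 over all tested genes. From 28 h to 30 h, 115 went up (63.5%, against 51.0%), with a median of 0.19 log2 against 0.01 log2. With libraries scaled by total counts alone, 153 (84.5%) and 141 (77.9%) members went up at these steps, as did 64.6% and 71.7% of all genes. The medians were then 0.58 and 0.42 log2, against 0.21 and 0.23 log2 for all genes. Scaling moves all genes of a step nearly alike, and at the second step the distance to all genes was small. At the 7 other steps the members' medians were negative, from −0.04 log2 (26 h to 28 h) to −0.29 log2 (22 h to 24 h), where 29.8% of members and 45.8% of all genes went up. The all-gene medians at these steps lay between −0.00491 and 0.0524 log2. Of the 150 members not called oscillating, 22 (14.7%) repeated the direction of all 5 steps 8 h later, a share near the 14.5% of all genes not called.

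The second comparison asked whether receptor genes rose or fell across the 18 h. Falls outnumbered rises: 36 of 181 members fell (19.9%, against 10.8% of all tested genes) and 3 rose (1.66%, against 15.7%). The median slope of the members was −0.57 log2 over the 18 h, while that of all tested genes was −0.02 log2, and 160 members (88.4%) had a slope below 0, against 51.3% of all genes. A call came from edgeR's quasi-likelihood test of the linear term where the adjusted p was under 0.05 and the slope reached 1 log2 across the 18 h. A further 38 members passed the adjusted p with smaller falls, as did 8.07% of all genes, and nhr-153 and nhr-193 with smaller rises, as did 6.96%. The summed level of all members started at 1774 CPM, reached 1917 CPM at 22 h and ended at 1169 CPM, and 67 members (36.2%) had their lowest level at 36 h, where 17.6% of all tested genes did.

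Scaling moved the size of this shift and the background with it. With total counts alone, 64 members fell and 3 rose, and the whole table changed from 2186 rises and 1509 falls to 1940 rises and 2435 falls. The median of all genes then lay at −0.33 log2 and that of the members at −0.88 log2. The members lay 0.55 log2 under all genes with either scaling, but a scaling factor moves all slopes nearly alike and could hardly change this distance. Members minus all genes was −0.43 log2 without the 18 h library, −0.66 log2 without the 20 h library, and between these without any other. It was −0.45 log2 with limma on the deposited values. The germline and sperm markers moved the other way: all 6 germline markers rose, and the sum of the 30 major sperm protein genes was 0.102 CPM at 18 h and 1759 CPM at 36 h. Some markers of other tissues fell: in neurons rab-3 and unc-104, with slopes of −1.36 ± 0.10 and −1.03 ± 0.13 log2, and in the pharynx pha-4, with −1.21 ± 0.31 log2. The neuron marker snb-1 and the pharynx markers myo-2 and tnt-4 were not called falling, with −0.21 ± 0.14, −0.48 ± 0.28 and −0.95 ± 0.39 log2. Body-wall muscle and intestine markers had median slopes of −0.15 and −0.04 log2, and none of them was called rising or falling. The epidermis markers had a median slope of −1.23 log2 and none was called falling. The part of any of these markers in the members' shift was not tested. Set beside genes of like level, 26 of 121 members with a mean of 1 to 10 CPM fell and 2 rose, against 17.5% and 24.1% of genes there, and 3 of 35 at 10 to 100 CPM fell and 0 rose, against 5.61% and 8.37%. Under 1 CPM, 7 of 25 fell and 1 rose, against 18.6% and 27.4%.

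**Figure D4:**
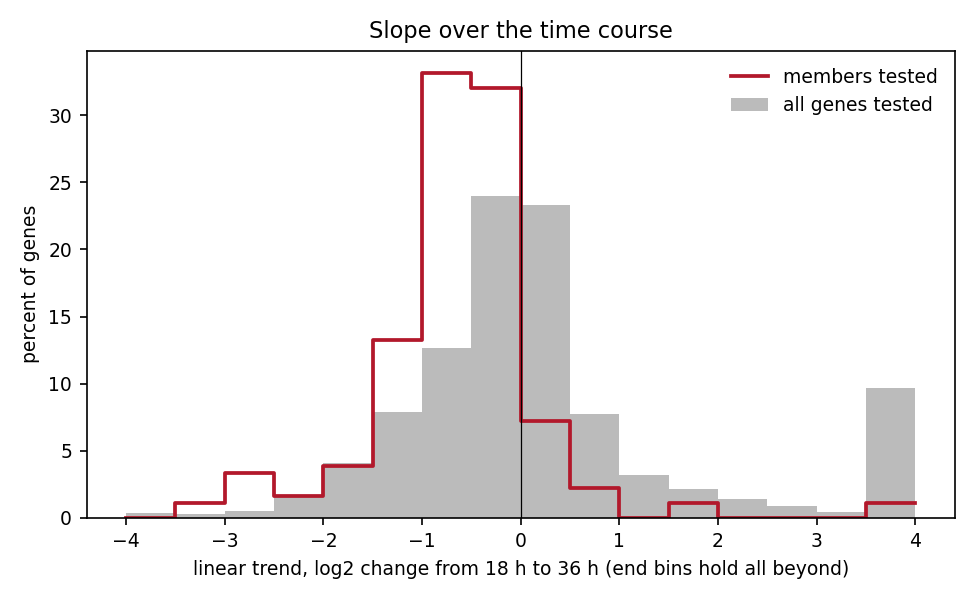
Distribution of the fitted slope over the 18 h in bins of 0.5 log2, in percent of genes, for the 181 tested members (red line) and all 13958 tested genes (grey bars), with the end bins at 4 log2 in either direction holding all values beyond. The members lie mostly between −1 and 0 log2, and the grey bar of steep rises at the right has few members.

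Of the members that fell and had a mean of at least 1 CPM, nhr-270 (WBGene00020062) had the steepest slope. It ran at 6.20, 2.71, 6.07, 4.68, 2.31, 2.07, 2.60, 2.49, 0.532 and 0.428 CPM from 18 h to 36 h. The last 2 libraries were lower than all others, and the slope was −3.13 ± 0.40 log2 (edgeR adjusted p = 0.000415). Falls of nhr-91, nhr-7 and nhr-113 were seen on top of their cycles, with slopes of −2.32 ± 0.23, −2.25 ± 0.57 and −2.34 ± 0.70 log2. That of nhr-7 was −1.38 log2 without the 18 h library and −1.96 log2 without the 36 h library, where the adjusted p was 0.103 and 0.0514. That of nhr-113 missed the threshold without the library of 24 h, 28 h, 30 h, 34 h or 36 h, with an adjusted p of 0.0506 to 0.116. The fall of nhr-265, at −2.92 ± 1.09 log2 (adjusted p = 0.0498), depended on its first library, since the slope was −0.01 log2 without 18 h, and it also missed the threshold without any of the others but those of 24 h and 30 h (adjusted p 0.0563 to 0.172).

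Among falls with little or no cycle, nhr-237 had 2.38 CPM in the first library and 0.489 CPM in the last, with a slope of −1.97 ± 0.45 log2 (edgeR adjusted p = 0.00703). The receptor nhr-67 (WBGene00003657), a relative of fly tailless that acts in neurons and in the anchor cell, ran at 4.09, 3.34, 3.07, 2.72, 3.15, 1.31, 1.93, 1.31, 1.39 and 1.04 CPM. Its 5 libraries up to 26 h were all above its 5 later ones, and the slope was −1.92 ± 0.31 log2 (adjusted p = 0.00148).

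Rises were rare. The gene nhr-234 (WBGene00012596) had 0.0341, 0.261, 0.428, 0, 0.0600, 0.226, 1.04, 4.07, 6.83 and 1.22 CPM from 18 h to 36 h. It was near silent through 28 h and high at 32 h and 34 h, where its 34 h level was at least 41.9-fold higher than the floor of 3 counts in the 24 h library, which held none. Its slope of 6.46 ± 1.83 log2 (edgeR adjusted p = 0.0165) summarises this late burst by a straight line, and the adjusted p was 0.0649 without the 18 h library. The gene nhr-76 (WBGene00015497), which acts in serotonin-driven fat loss, stayed between 1.21 and 3.64 CPM through 34 h and reached 7.65 CPM at 36 h. Its slope was 1.79 ± 0.47 log2 (adjusted p = 0.0149), but 0.92 log2 without the 36 h library (adjusted p = 0.104) and 1.70 log2 without the 18 h library (adjusted p = 0.0604). The third, nhr-207, had a mean of 0.309 CPM and at most 15 counts in a library.

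**Figure D5:**
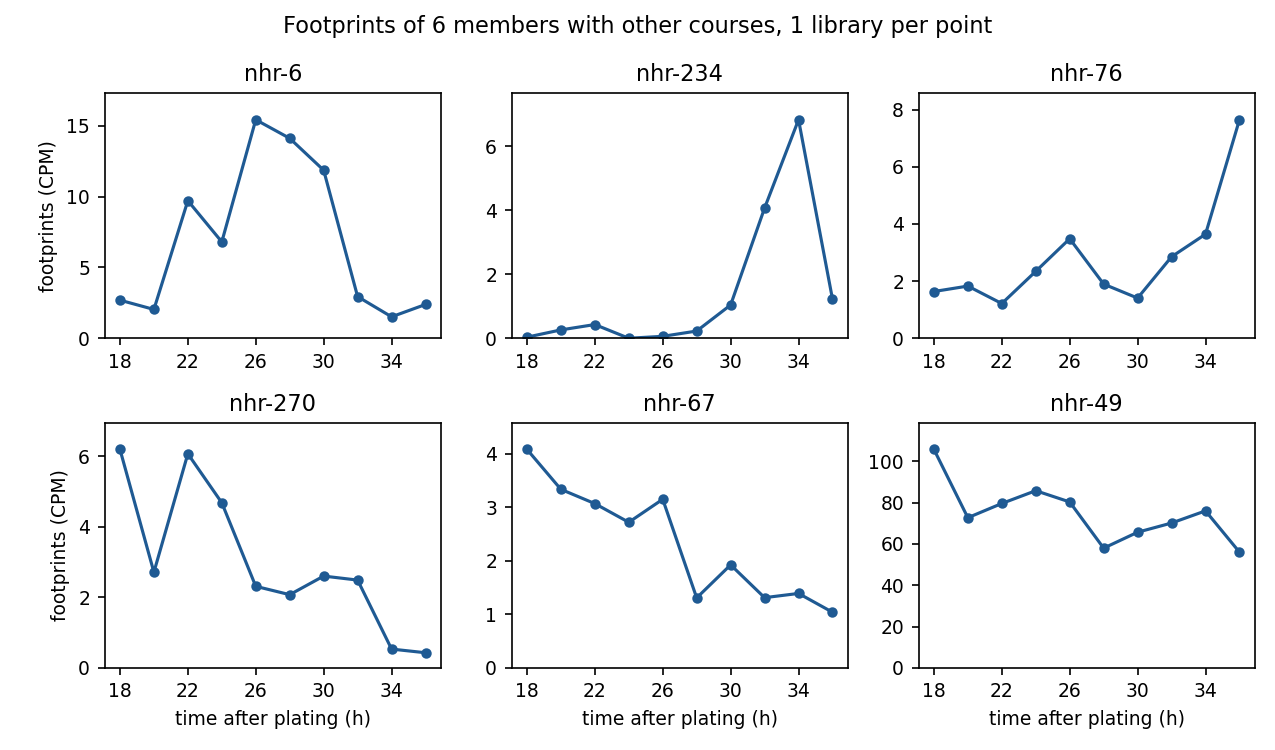
Footprint levels in CPM of nhr-6, nhr-234, nhr-76, nhr-270, nhr-67 and nhr-49 against time after plating, 1 library per point and each panel on its own scale from 0. The panel of nhr-6 has a hump from 22 h to 30 h, nhr-234 and nhr-76 are highest at 34 h and 36 h, and nhr-49 stays between 56.0 and 106 CPM.

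Receptors with known roles were grouped by those roles. Among the 7 lipid and fasting receptors, none oscillated, rose or fell by the threshold, beside 22.7%, 15.7% and 10.8% of all genes. At smaller sizes, 3 of them passed the adjusted p for a cycle and 4 for a fall. Their median difference was 0.45 log2 and their median slope −0.55 log2. Levels of nhr-49 were 106, 72.7, 79.6, 85.8, 80.3, 58.0, 65.7, 70.1, 76.02 and 56.0 CPM from 18 h to 36 h, a 1.89-fold span, with a slope of −0.55 ± 0.12 log2 (edgeR adjusted p = 0.00611). Its partners in lipid metabolism spanned 1.46-fold (nhr-80), 2.41-fold (nhr-13) and 1.56-fold (nhr-66) between their lowest and highest libraries. The receptor nhr-62, needed for the longevity of diet-restricted worms, had a slope of −0.80 ± 0.18 log2. The close HNF4 relatives nhr-64 and nhr-69 passed the adjusted p for a cycle with differences of 0.88 ± 0.17 and 0.68 ± 0.17 log2 and peaks at 31.3 h and 31.7 h, and that of nhr-64 was 1.06 log2 without the 32 h library.

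None of the 3 diet and propionate receptors was called. The receptor nhr-68, which acts with nhr-10 to switch on the propionate shunt, ran at 48.8, 60.6, 27.5, 45.9, 50.3, 58.2, 37.9, 64.2, 58.7 and 61.8 CPM. Levels of nhr-114, which protects fertility on some bacterial diets, were 37.6, 33.7, 12.3, 28.0, 42.8, 34.8, 26.2, 40.4, 38.7 and 30.4 CPM. Both were lowest at 22 h and had another low point at 30 h, the times at which most oscillating members were high. The fitted difference of nhr-114 was 1.02 ± 0.29 log2 (edgeR adjusted p = 0.0811) and that of nhr-68 0.63 ± 0.26 log2 (adjusted p = 0.220). The receptor nhr-10 was instead highest at 22 h, at 23.03 CPM, and lowest at 34 h, at 13.1 CPM.

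Of the 5 receptors for toxins, oxygen, iron and defence, nhr-57 fell. This gene, a target of the hypoxia factor HIF-1, had 3.61 CPM in the first library and 1.41 CPM in the last, with a slope of −1.46 ± 0.33 log2 (edgeR adjusted p = 0.00882) that was called in every alternative tried. The steadiest members of the group were nhr-86, which senses a bacterial phenazine, at 22.7 to 29.2 CPM, and nhr-176, which acts in the breakdown of the anthelmintic thiabendazole, at 2.60 to 3.80 CPM. The toxin and cholesterol regulator nhr-8 was highest at 22 h, at 37.5 CPM, and lowest at 36 h, at 19.3 CPM. The iron regulator nhr-14 was also highest at 22 h, at 51.2 CPM, and had a slope of −0.52 ± 0.14 log2.

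The developmental and conserved receptors held 3 oscillating members of 8 tested (nhr-31, nhr-41 and nhr-91) and 3 that fell (nhr-40, nhr-67 and nhr-91), beside 22.7% and 10.8% of all genes. The remaining listed genes nhr-2 and nhr-111 stayed under the count minimum. The median difference of the 8 was 0.59 log2 and their median slope −0.72 log2. The fall of nhr-40, which acts in embryonic and muscle development, lay at the threshold: −1.01 ± 0.20 log2 (edgeR adjusted p = 0.00396), and −0.814 to −0.997 log2 without the library of 18 h, 22 h, 26 h, 28 h or 32 h. The receptor nhr-48, a relative of nhr-8 and daf-12, had a slope of −0.74 ± 0.13 log2, and nhr-35 one of −0.30 ± 0.17 log2.

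A course that neither term of the curve describes was that of nhr-6 (WBGene00003605), the worm relative of the vertebrate NR4A receptors, which is needed to form the spermatheca. Its levels were 2.69, 2.03, 9.71, 6.80, 15.4, 14.1, 11.9, 2.94, 1.51 and 2.39 CPM from 18 h to 36 h. The 5 libraries from 22 h to 30 h were all higher than the other 5, with a 10.2-fold span. The fit gave a difference of 0.71 ± 1.13 log2 for the cycle (edgeR adjusted p = 0.856) and a slope of −0.70 ± 1.25 log2 (adjusted p = 0.777). A single hump counts as scatter around this curve.

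All other members were 162 genes, of which 158 were tested, and had a median slope of −0.59 log2. Of the 158, 28 oscillated, 3 rose and 32 fell, beside 22.7%, 15.7% and 10.8% of all tested genes. Most of the family lies on chromosome V by the Ensembl 115 annotation, which holds 118 members, while chromosomes I, II, III, IV and X hold 7, 11, 6, 27 and 16. Members on V had a median of 2.33 CPM per kb of coding sequence and the other members one of 6.49 CPM per kb. On V, 19 of 117 tested members oscillated and 22 fell, beside 30.0% and 13.7% of all tested genes there. On the other chromosomes 12 of 64 oscillated and 14 fell, beside 21.0% and 10.1%.

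Genes that act with these receptors, or downstream of them, moved in different ways. Of 4 coregulators, din-1, a corepressor partner of daf-12, fell by 1.82 log2 (SE 0.28), with 190 CPM in the first library and 33.3 CPM in the last, and no other was called. The Mediator subunit mdt-15, a coactivator of nhr-49, ran at 93.4 to 137 CPM. Among 6 targets of nhr-49 found, 4 were tested. The desaturase gene fat-5 oscillated with a difference of 3.12 ± 0.44 log2, the glyoxylate cycle gene icl-1 did so with 1.83 ± 0.23 log2, peaking at 27.3 h and 27.6 h, and the acyl-CoA synthetase gene acs-2 fell by 1.95 log2 (SE 0.54). The genes fat-7 and fmo-2 had too few counts to test. These targets that cycled peaked where few receptor genes did.

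In the propionate shunt, acdh-1, its first dehydrogenase, oscillated with a difference of 1.82 ± 0.36 log2, peaking at 27.01 h, and rose by 1.58 ± 0.39 log2. A further 3 of the 5 genes passed the adjusted p for a rise at under 1 log2. The low libraries of acdh-1 were 22 h, at 213 CPM, and 24 h, at 269 CPM. Of the 20 vacuolar ATPase genes, whose products acidify organelles and which include targets of nhr-31, 18 passed the adjusted p for an 8 h cycle without the minimum size, as did 34.4% of all tested genes. Their differences were small, 0.38 to 1.07 log2, and their peaks lay within 31.6 h to 32.7 h, while nhr-31 peaked at 30.5 h with a standard error of 0.194 h. At the 1 log2 threshold vha-5 oscillated, at 1.07 ± 0.16 log2, and vha-18 rose, at 2.62 ± 0.42 log2, and 15 of the 20 passed the adjusted p for a fall at under 1 log2, beside 8.07% of all genes.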

How the data were processed

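Ribosome footprints of whole N2 worms were analysed from 10 libraries, 1 per time. The authors deposited raw counts per gene. They also deposited log2 values, which match log2 of counts scaled to the mean library total with 8 added (largest difference 5e-05). The submitters' processing notes name Bowtie; build, annotation, counting rule and the treatment of reads matching several genes are not stated in the sources at hand. No coordinates are therefore printed, and counts of near-identical neighbouring receptor genes are uncertain. Strand use is not stated either, and nhr-101 overlaps a gene on the opposite strand.

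Symbols came from a gene name table (18778 identifiers matched), and chromosomes and coding lengths from Ensembl 115. No table of sequences was used. The fits ran in edgeR 4.0.16 under R 4.3.3, with DESeq2 1.42.0 and limma 3.58.1 for alternatives, and tables were made in Python 3.11.15. Genes passed at 0.441 CPM, which is 10 counts at the median depth, in 3 or more libraries (13958 genes). Counts were scaled with TMM factors of 0.829 to 1.16. The 4 terms of the model were the cosine and sine of 8 h, a linear time term and an intercept, which leave 6 residual degrees of freedom. Benjamini-Hochberg adjustment covered every gene tested. Floors for genes at 0 are 3 counts in that library and cover counting error only.

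Members and gene lists were chosen with earlier results of these data known. Genes named are the 10 oscillating, and up to 6 rising and 6 falling members with the largest changes at a mean of at least 1 CPM, the 6 highest per kb, the function lists, and those at the count minimum. Genes given for their course, place or level beyond these were chosen after their values were seen.

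In simulated data of 13809 genes, oscillations of 1, 2, 4 and 6 log2 were called for 24%, 72%, 94% and 100% of changed genes. Of 154 such calls, 9 were false. Trends of these sizes were called for 20%, 84%, 96% and 100%, with 7 false among 157. These shares were not split by count level, so they do not show how often a low-count member would be called. The simulation also held far fewer calls than the 3174 oscillating genes of the real data, so its false share may not carry over. Alternatives were other scalings, filters, tools, periods and a quadratic time term, and each library left out once. After the data had been seen, edgeR's newer quasi-likelihood setting was added.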

Additional observations from a re-analysis of the deposited data

How the results depend on the processing

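Of 1009 values recomputed for single named members under 24 alternatives, 918 stayed on their side of the threshold, 86 lost a call and 5 gained one. The 918 include peak-to-trough differences of members that did not oscillate in the main fit and stayed without that call. Slopes were followed here only where the main fit called a rise or a fall. None of them turned its direction, but they were picked as slopes of at least 1 log2, so this says nothing of smaller slopes. A peak-to-trough difference has no sign and could not turn. Without the minimum size, 53 members oscillated, 5 rose and 74 fell, and of all genes 4796 oscillated, 3158 rose and 2635 fell. At periods of 7 h and 9 h, 0 members and 0 genes of the table oscillated by edgeR's adjusted p, although 47 and 45 members (4415 and 3660 genes) had an unadjusted p under 0.05, and no other tool was run at these periods. At 8.5 h 20 members and 2222 genes oscillated. At a mean of at least 50 counts, 1 member rose, and 1313 genes of the table rose and 943 fell. With total counts alone, 64 members and 2435 genes of the table fell, and 57 members and 2122 genes fell with limma on the deposited values. Leaving out each library in turn gave 20 (without 22 h) to 31 oscillating, 1 (without 36 h) to 4 rising and 25 to 38 falling members. Over the table these fits gave 2479 to 3120 oscillating, 1557 to 2191 rising and 1226 to 1555 falling genes. Called in every such fit were 15 of the 31 oscillating members, 15 of the 36 falling members and 0 of the 3 rising members. This count was not made over the whole table. DESeq2 called 32 members oscillating, 3 rising and 33 falling, and 3173, 2318 and 1424 genes of the table. The cause of these shifts was not tested. No paired analysis was possible because each time has 1 library. With 1 library a time, a member with few counts and a small cycle is not resolved. Of 181 members tested, 79 had an unadjusted edgeR p under 0.05 for the cycle, 31 of them called. Of all 13958 genes tested, 6405 had one, 3174 of them called. Differences of at least 1 log2 without passing the adjusted p were seen in 14 members, and nhr-114 is among both these and the 79. The 14 were not set beside a count over the whole table.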

Other observations

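Receptor genes often lie side by side. By the order of genes in Ensembl 115, 135 of the 268 genes with such symbols stand in 43 runs of neighbouring receptor genes, and the largest run holds 9. These runs hold 94 of the 185 members and form 53 neighbouring pairs of tested members. In 3 pairs both genes oscillated and in 9 a single gene did, while in 4 pairs both fell and in 10 a single gene did. Of all tested members, 17.1% oscillated and 19.9% fell, beside 22.7% and 10.8% of all tested genes. Such pairs were not counted among other genes, so the counts do not show whether neighbours share calls more often. Pearson's r of levels over the 10 libraries, which all pairs share with their depth, had a median of 0.48 over the neighbouring pairs and 0.33 over all 16290 pairs of tested members.

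Examples lie at both ends. The pair nhr-84 and nhr-102 had the same fitted peak, 29.9 h. At 22 h, 26 h, 30 h and 34 h, levels of nhr-84 were 7.999, 2.46, 5.31 and 1.10 CPM, and those of nhr-102 were 7.71, 1.98, 5.05 and 1.68 CPM. The pair nhr-129 and nhr-168 peaked later, at 33.0 h and 33.4 h, and both fell, by 1.45 log2 (SE 0.19) and 1.24 log2 (SE 0.28). On chromosome II, in contrast, nhr-235 was highest at 22 h, at 14.4 CPM, and lost its footprints by 36 h, while its neighbour nhr-234 had 0.428 CPM at 22 h and was highest at 34 h, at 6.83 CPM. These pairs were chosen after their values were seen, and how far neighbours share reads was not tested.

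Of the 79 receptor genes under the count minimum, 48 lie on chromosome V, beside 118 of the 185 members, and 13 on chromosome I, beside 7 members. Among members, 10 of the 16 on chromosome X and 6 of the 118 on chromosome V had a mean of at least 10 CPM, and the X members had a median of 9.85 CPM per kb of coding sequence.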
